A study of Mus musculus with 93 samples.

Results

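Crabp1, Crabp2, Fabp5 and Fabp7 are mouse genes for small intracellular carriers of retinoic acid and of fatty acids, and their levels were followed cell by cell through 5 labelled stages of olfactory neuron development. They were taken by gene symbol and make up 4 of the 32517 symbols of the deposited expression table. They were selected on the sharp fall of Crabp2 and Fabp5 along the stages in these same cells, so their levels by stage are a description and carry no test. Each library held cDNA of 1 manually picked cell from dissociated olfactory epithelium, primed with oligo(dT) and amplified by PCR, and the mice were of the strain C57BL/6. The labels name 11 cells Progenitor, 9 cells Precursor, 27 cells Early Immature Neuron, 13 cells Late Immature Neuron and 25 cells Mature Neuron, and 8 of these 85 cells have a second library. All cells share the strain and tissue, and no label gives a treatment, an age, an animal, or the rule by which a cell was given its stage. With no animal named, each stage counts as 1 sample, and every SD stands for the spread between cells.

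The CRABP proteins hold retinoic acid in the cytoplasm. CRABP2 can pass it to the retinoic acid receptors in the nucleus, while CRABP1 is linked with its delivery to the enzymes that break it down. The FABP proteins carry long-chain fatty acids: FABP5 can bring ligands to the nuclear receptor PPARD, and FABP7, also called brain lipid binding protein, is known from radial glia and from the ensheathing glia of the olfactory nerve. Olfactory neurons are replaced throughout life from basal progenitors, and retinoic acid is one of the signals with a known part in that renewal.

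The 4 genes lie on the plus strand of mm10 in the authors' annotation. Crabp1 spans bases 54764748 to 54773110 of chromosome 9, Crabp2 bases 87948666 to 87953376 of chromosome 3, Fabp5 bases 10012548 to 10016607 of the same chromosome, and Fabp7 bases 57784881 to 57788450 of chromosome 10. The sequence just before the first exon is shown for Crabp1 and Fabp7, which were the 2 of the 4 that matched the RefSeq promoter table, as the start regions of 1 carrier that stayed high into Early Immature Neuron cells and 1 that did not. Capitals mark, on either strand, matches to the GC box GGGCGG, the CCAAT box, the TATA box TATAAA and AGGTCA, the core hexamer of retinoid receptor sites.
Crabp1, chr9:54764498-54764747 (GRCm38, plus strand): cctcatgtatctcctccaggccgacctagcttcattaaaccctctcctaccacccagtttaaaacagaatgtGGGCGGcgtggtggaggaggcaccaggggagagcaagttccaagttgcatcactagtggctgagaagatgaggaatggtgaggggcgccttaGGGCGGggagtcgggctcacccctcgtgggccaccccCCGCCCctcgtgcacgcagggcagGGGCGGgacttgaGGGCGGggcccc
Fabp7, chr10:57784673-57784880 (GRCm38, plus strand): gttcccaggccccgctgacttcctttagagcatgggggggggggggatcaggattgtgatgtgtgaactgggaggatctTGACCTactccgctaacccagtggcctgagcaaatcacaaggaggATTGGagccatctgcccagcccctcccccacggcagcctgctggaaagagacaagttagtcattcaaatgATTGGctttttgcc
The Crabp1 stretch of 250 bases was 63.6% G or C and held 5 GC boxes, a motif found in 32.7% of 32851 mouse promoters at that length, and none of the other marked motifs. The Fabp7 stretch of 208 bases was 56.2% G or C and held no GC box. It held 2 CCAAT boxes, found in 29.6% of promoters at its length, and 1 AGGTCA hexamer, found in 11.9%. Neither held a TATA box. The E-box CANNTG, the motif of the proneural factors, had no match before Crabp1 and 2 matches before Fabp7, and was found in 66.2% and 60.3% of promoters at these lengths. These matches describe the letters in the windows and show no binding.

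Values are FPKM, the authors' fragment counts scaled to transcript length and to the size of the library. The length scaling does not remove differences between genes in priming and amplification, so levels of different genes are only roughly comparable. Detection in a cell means an FPKM of 1 or more. Spacing of the lowest values placed 1 FPKM over 1 kilobase at 0.584 to 10.2 fragments (median 5.80 over the 85 cells). Cells held 2646 to 6402 detected genes. Mitochondrial transcripts made up a median of 44.4% of FPKM in Progenitor cells, 37.4% in Precursor cells, 44.1% in Early Immature Neuron cells, 55.7% in Late Immature Neuron cells and 67.0% in Mature Neuron cells. Mature neuron markers set the last stage apart from the first. Summed over 6 of them, among them Omp, FPKM was 2989 to 43817 in Mature Neuron cells and 0 to 59.6 in Progenitor cells. Not every cell held the markers of its label. The 6 early neuron markers summed to 6.28 to 3630 in Early Immature Neuron cells, where D357 held Tubb3 at 2.91 and Gap43 at 2.46. The 5 dividing cell markers summed to 0.290 to 1946 in Progenitor cells. The Progenitor cell D337 had the progenitor markers Sox2 and Pax6 at 0. The 3 horizontal basal cell markers stayed under an FPKM of 1 in every Mature Neuron and Progenitor cell, and so did all 6 glial markers in Progenitor cells. The other stages were not free of them. Horizontal basal markers summed to up to 32.3 in Early Immature Neuron cells. Glial markers summed to up to 88.3 in Precursor, 83.3 in Early Immature, 17.3 in Late Immature and 133.6 in Mature Neuron cells. Sustentacular markers, from the supporting cells of the epithelium, summed to a median of 284 in Mature Neuron and 162 in Progenitor cells. Cell numbers are the sole batch-like label. The stages are spread unevenly over them, and D316 to D434 is the one stretch of numbers that holds all 5 stages.

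Crabp2, the carrier that serves the retinoic acid receptors, was high in most Progenitor and Precursor cells and low in nearly all later ones. Its FPKM was 0.940 at the lowest, 243.4 at the median and 1170 at the highest in Progenitor cells. Precursor cells had a lowest value of 0.407, a median of 407 and a highest value of 566. In Early Immature Neuron cells the values were 0, 0.534 and 25.2, in Late Immature Neuron cells 0, 0.217 and 97.5, and in Mature Neuron cells 0, 0 and 8.11. An FPKM of 100 was reached by 6 of 11 Progenitor and 7 of 9 Precursor cells and by no first library of the 3 later stages, although the lowest Progenitor and Precursor cells overlapped with all of them. The same held among cells D316 to D434, where 2 of 3 Progenitor and 4 of 5 Precursor cells reached 100 and none of the later cells did. Mean log2(FPKM + 1) was 5.93 ± 3.43, 6.86 ± 3.47, 0.96 ± 1.18, 1.35 ± 2.07 and 0.51 ± 1.09 along the 5 stages (SD, n = 11, 9, 27, 13 and 25).

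The step of Crabp2 lay between Precursor and Early Immature Neuron cells. The difference in mean log2(FPKM + 1), Early Immature Neuron minus Precursor, was -5.90, the 5th lowest of 4001 genes measured in that comparison. A gene counts as measured between a pair of stages if 50% or more of the cells of at least 1 of them detected it. The difference was -6.70 without the Precursor cell D178. Of the measured genes, 28.1% were lower by at least 1 log2 unit in that step and 22% were higher. The difference of Mature Neuron from Progenitor cells was -5.42. That of Precursor from Progenitor cells, 0.93, was within the SD of the stages and was 1.73 without D178. It changed sign to -0.37 when cells with sustentacular, blood and immune or stroma and endothelium markers at an FPKM of at least 100 were left out. That setting left 6 Precursor cells and 3 Progenitor cells, the latter all numbered D316 to D434. Markers and cell numbers cannot be told apart there. In the order of the 5 means, only the gap between Progenitor and Late Immature Neuron exceeded the SD of its neighbours.

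Within the Progenitor and Precursor stages, Crabp2 was either high or nearly lacking. Of these 20 cells, 14 held an FPKM of 69.0 to 1170. The others were the Progenitor cells D172 at 4.50, D175 at 1.79, D189 at 0.940 and D337 at 3.89, and the Precursor cells D178 at 0.407 and D398 at 1.17. Hes6, a target and partner of the proneural factors, stood at 12.1, 3.68, 94.7 and 292 in these Progenitor cells and at 1.68 and 3.42 in these Precursor cells. Among the 58 cell type markers compared, Hes6 followed Crabp2 most closely across the 20 cells (Pearson's r = 0.82, Spearman's rho = 0.62). Among the 8 of these cells numbered D316 to D434, r was 0.79 and rho 0.55. These cells carry 2 stage labels and differ in depth, so the coefficients are a description.

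**Figure D1:**
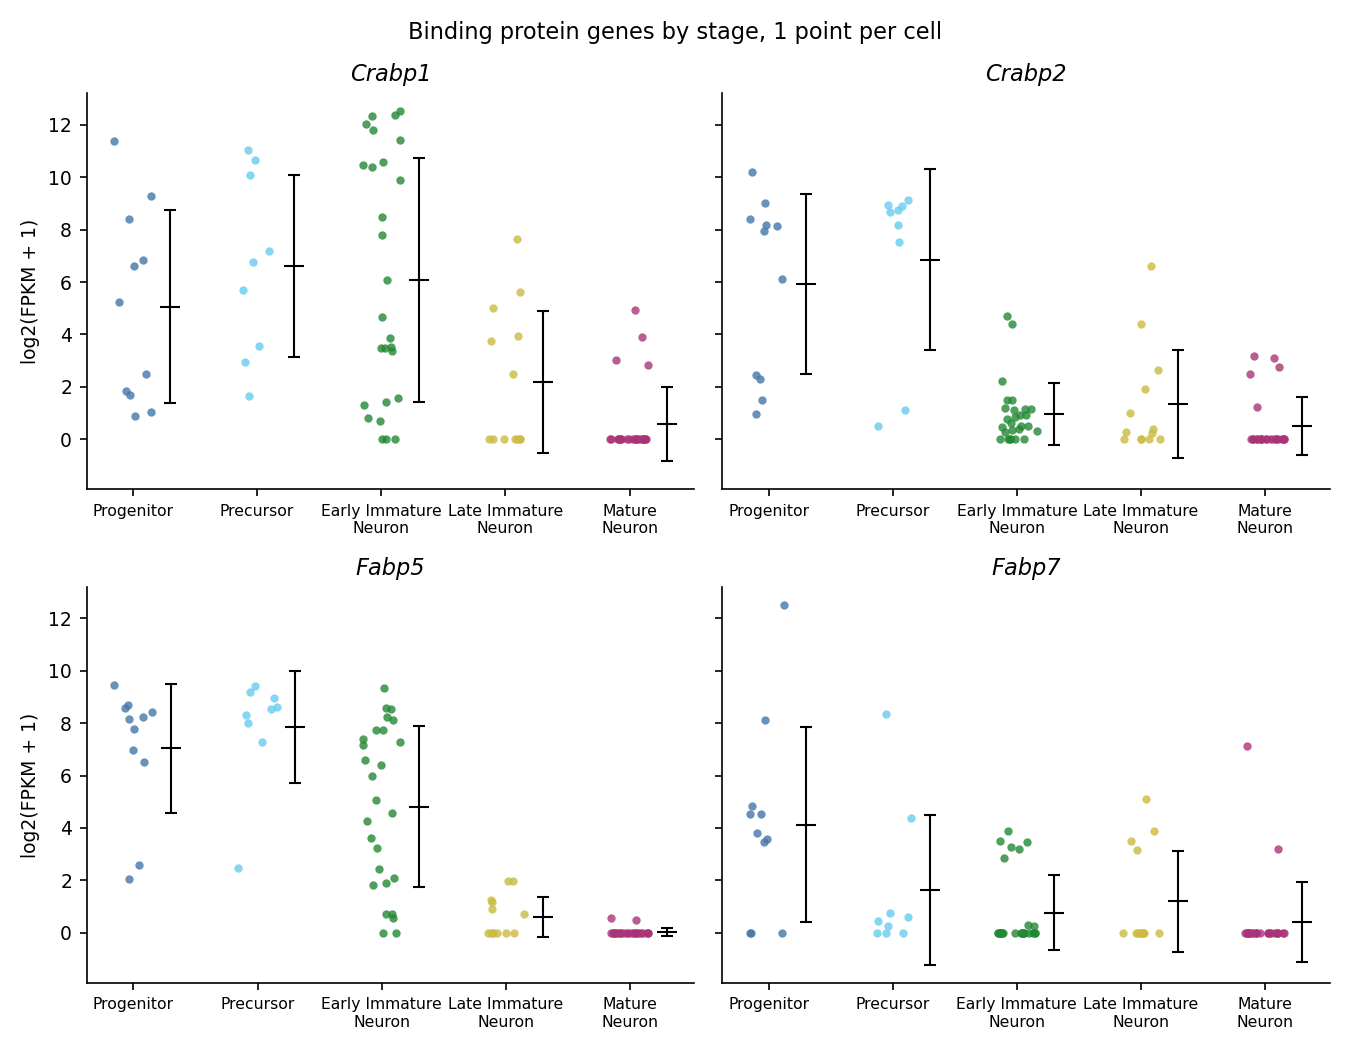
Level of each binding protein gene in every first library, as log2(FPKM + 1), by stage, with 1 point per cell. Black marks beside the points give mean and SD between cells (n = 11, 9, 27, 13 and 25). Crabp2 has no cell above 97.5 FPKM past the Precursor stage, Fabp5 has none above 2.96 past Early Immature Neuron, and Crabp1 reaches its highest value, 5833, in Early Immature Neuron cells.

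**Figure D2:**
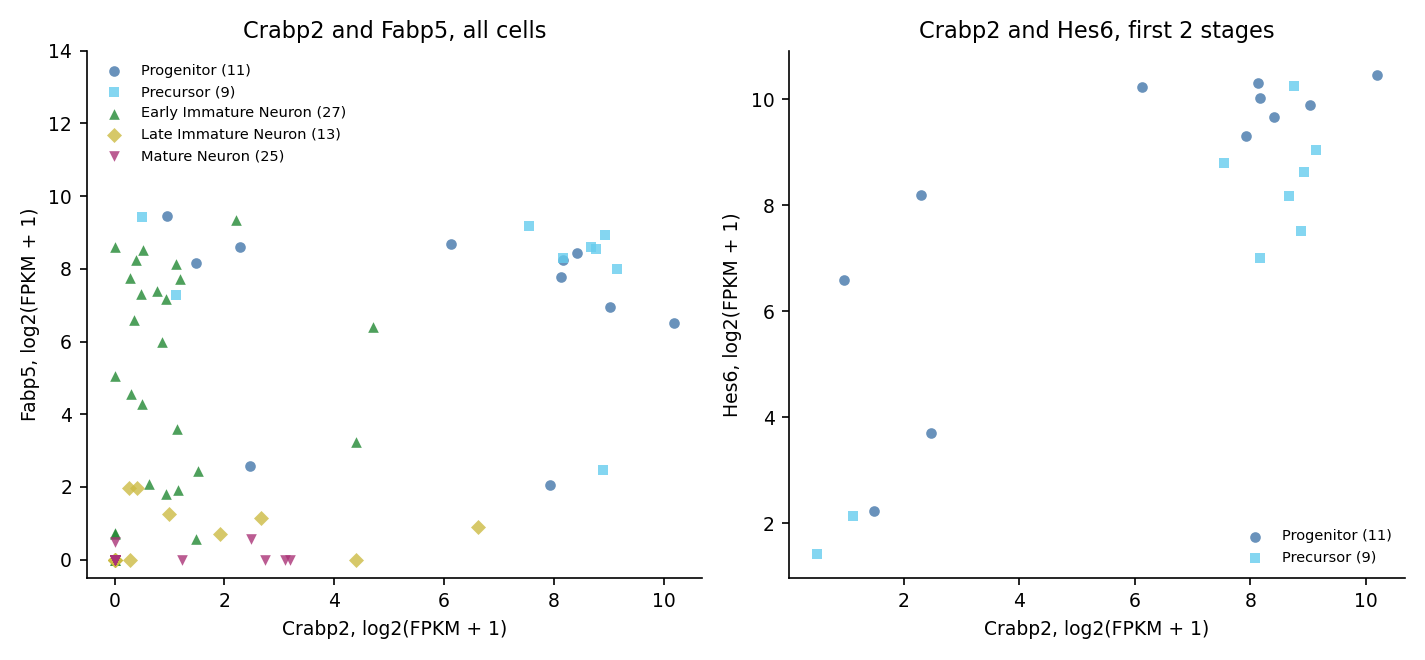
Crabp2 against Fabp5 in all 85 cells (left) and against Hes6 in the 20 Progenitor and Precursor cells (right), both axes as log2(FPKM + 1), with 1 point per cell and colour and shape for the stage. In the left panel Early Immature Neuron cells run up the Fabp5 axis at Crabp2 values of at most 25.2 FPKM. In the right panel the 6 cells with Crabp2 under 10 include the 4 cells with Hes6 under 13 FPKM.

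Crabp1, the other retinoic acid carrier, stayed high for 1 stage longer and varied most among Early Immature Neuron cells. Its FPKM was 0.869 at the lowest, 36.9 at the median and 2656 at the highest in Progenitor cells, and 2.17, 108 and 2108 in Precursor cells. In Early Immature Neuron cells it was 0, 24.5 and 5833. Late Immature Neuron cells had values of 0, 0 and 198, and Mature Neuron cells 0, 0 and 29.3. The first 3 stages overlapped over nearly their whole range. An FPKM of 100 was reached by 4 Progenitor cells of 11, by 5 Precursor cells of 9, by 12 Early Immature Neuron cells of 27, by 1 Late Immature Neuron cell of 13 and by no Mature Neuron cell. Mean log2(FPKM + 1) was 5.07 ± 3.69, 6.62 ± 3.47, 6.09 ± 4.66, 2.19 ± 2.72 and 0.59 ± 1.42 along the stages (SD, n = 11, 9, 27, 13 and 25). Every gap between neighbours in the order of these means was smaller than their SD.

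The difference of Crabp1 between Late and Early Immature Neuron cells was -3.90 log2 units, the 12th lowest of 4138 measured genes. In that comparison 16.1% of measured genes were lower and 32.6% higher by at least 1 log2 unit. The difference of Mature Neuron from Progenitor cells was -4.48, and -3.85 without the Progenitor cell D337. Precursor cells were 1.56 higher than Progenitor cells, a value that lay between 1.004 without D398 and 2.19 without D337. It was 0.47 without the cells that held markers of other cell types, a setting that left 6 Precursor and 3 Progenitor cells. In that comparison 20.1% of measured genes were higher and 21.6% lower by at least 1 log2 unit. The difference of Early Immature Neuron from Precursor cells, -0.53, was within the SD and came to 0.02 without D398 and -1.15 without D242.

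Crabp1 split the Early Immature Neuron cells. Of 27 cells, 12 stood between 219 and 5833, D401 and D434 at 65.9 and 24.5, and the other 13 at 13.4 or less, with 3 of them listed at 0. Cnga2, a subunit of the olfactory transduction channel, ran opposite to Crabp1 across the 27 cells more closely than any other of the 58 markers (r = -0.71, rho = -0.66). Among the 19 of them numbered D316 to D434, r was -0.73. Lhx2, a transcription factor of olfactory neurons, went with Crabp1 at r = 0.58, and Hes6 at r = 0.56. Gap43, a growth cone protein of immature neurons, went against it at r = -0.46, while Dpysl3, a collapsin response mediator expressed in neurons that extend axons, went with it at r = 0.46. The 3 cells with the most Crabp1 were D318 at 5833, D411 at 5378 and D424 at 5214, where Omp, the marker of mature olfactory neurons, was 0, 0 and 9.39 FPKM. Omp was also low in cells with little Crabp1, at 0 in D417 and 4.94 in D362, with Crabp1 at 10.3 and 1.97. The 2 Early Immature Neuron cells numbered D213 to D274, D215 and D244, held Crabp1 at 1516 and 1345 and Omp at 4143 and 648. Gap43 was 0 in both and was detected in no first library of those numbers. D215 was also the shallowest cell of its stage, with 0.774 fragments at 1 FPKM over 1 kilobase.

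**Figure D3:**
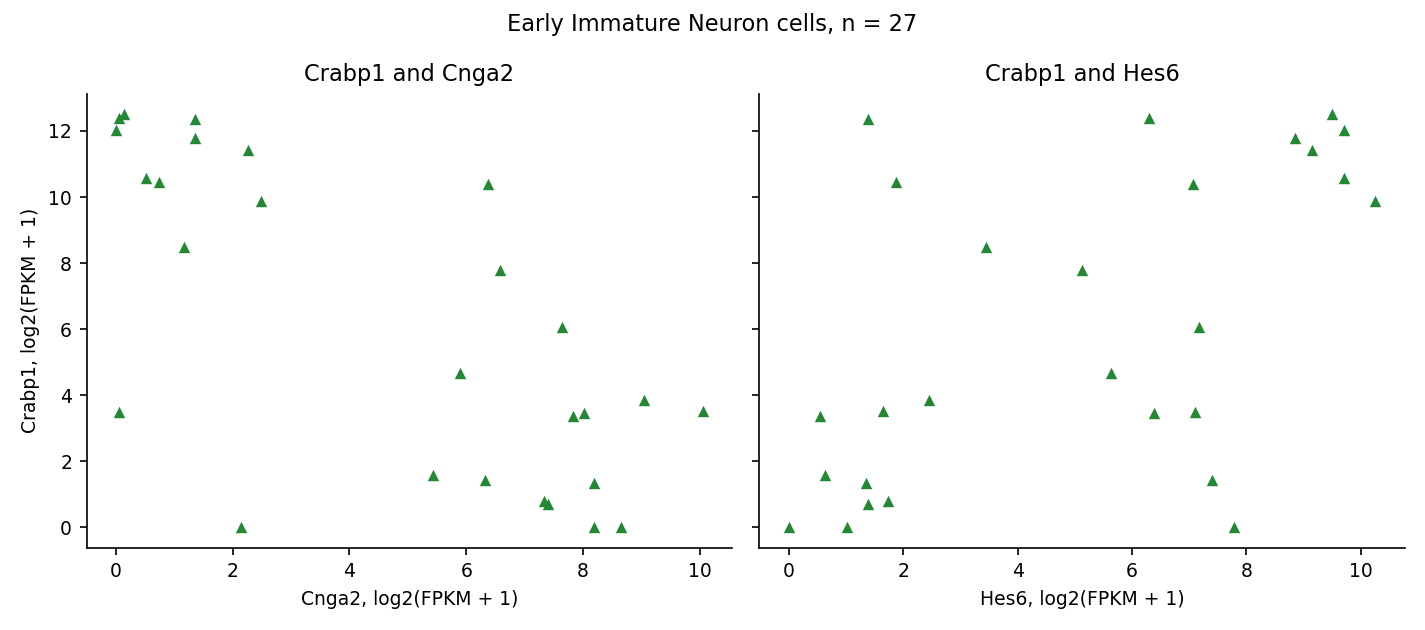
Crabp1 in the 27 Early Immature Neuron cells against Cnga2 (left) and Hes6 (right), all as log2(FPKM + 1), with 1 point per cell. Cells with much Cnga2 have little Crabp1 (r = -0.71), and cells with Hes6 tend to hold more Crabp1 (r = 0.56).

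Fabp5, a fatty acid carrier, was present in all Progenitor and Precursor cells and at 2.96 or less in the first libraries of all Late Immature and Mature Neuron cells. Its FPKM was 3.19 at the lowest, 286 at the median and 695 at the highest in Progenitor cells, and 4.48, 370 and 682 in Precursor cells. Early Immature Neuron cells covered the whole span, with 0, 32.3 and 651. Late Immature Neuron cells had values of 0, 0 and 2.96, and Mature Neuron cells 0, 0 and 0.473. Among first libraries, the highest Late Immature Neuron cell lay just under the lowest Progenitor cell. All 19 cells numbered D168 to D205 detected Fabp5, whatever their stage. Of these, 6 stood at 2.89 to 4.94, under 1% of the highest value there, among them the Progenitor cells D172 and D174. With repeats the stages overlapped: the repeat library of the Late Immature Neuron cell D230 read 10.5, above the Progenitor cells D174 at 3.19 and D172 at 4.94. Fabp5 was detected in 0 of 25 first libraries of Mature Neuron cells. The gene was selected on its fall along these stages, so that count sets no limit for other cells. It counts libraries with a detection and not cells that express the gene, and the repeat library of the Mature Neuron cell D243 read 2.13. In the 23 Mature Neuron cells listed at 0, a count of 3 fragments would have come to an FPKM of 0.420 to 6.44. The transcripts of Actb, Gapdh, Eef1a1 and Ubb, used by every cell, were above 0 in all 85 cells.

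Mean log2(FPKM + 1) of Fabp5 was 7.04 ± 2.47, 7.86 ± 2.13, 4.82 ± 3.08, 0.61 ± 0.77 and 0.04 ± 0.15 along the stages (SD, n = 11, 9, 27, 13 and 25). The difference of Late from Early Immature Neuron cells was -4.21, the 9th lowest of 4138 measured genes. That of Early Immature Neuron from Precursor cells was -3.04, and -3.71 without the Precursor cell D242. That of Mature Neuron from Progenitor cells was -6.997, the 10th lowest of 4463 genes, with 46.3% of measured genes lower and 25.2% higher by at least 1 log2 unit. All 4 carriers were measured and lower there. For Crabp2 and Fabp5 this follows from the selection, and for Fabp7 the sign was the other way among cells D316 to D434. The 4 were also chosen as a set with earlier results of these data known, so the count carries no test. The gap between Early and Late Immature Neuron and that between Late Immature and Mature Neuron exceeded the SD, and the others did not.

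The low Fabp5 values of the first 2 stages sat in 3 cells. They were the Progenitor cells D172 at 4.94 and D174 at 3.19 and the Precursor cell D242 at 4.48, while the other 17 cells ranged upward from the 90.3 of D169. Cbr2, a sustentacular marker, stood at 478, 58.3 and 1071 in those cells, and across the 20 cells it ran opposite to Fabp5 (r = -0.68, rho = -0.48). The 7 sustentacular markers summed to 0 to 1316 in Precursor and 0.0875 to 597 in Progenitor cells. Among the 8 cells numbered D316 to D434 the sign of the coefficient was the other way (r = 0.51). Cbr2 also stood at such levels in cells with much Fabp5: D184 held Cbr2 at 59.0 with Fabp5 at 218, and D203 held it at 315 with Fabp5 at 123. Krt8, another of the 7 markers, was 3.89, 224.5 and 70.5 in D172, D174 and D242. It was 196.6 in D170 and 273.8 in D203, with Fabp5 at 408 and 123. In Mature Neuron cells mean log2(FPKM + 1) was 5.88 for Cbr2 and 0.57 for Krt8, so Cbr2 does not stand for the whole list. D174 also held Foxi1 at 261.7 and Trpm5 at 28.3, from a list of 6 gland and microvillous cell markers that summed to 0 to 304 in Progenitor cells. The part of RNA from these other cell types in the low values was not tested. All 8 Progenitor and Precursor cells numbered D316 to D434, with Cbr2 at 1.69 or less, held Fabp5 at 154 to 578.

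Part of the Fabp5 transcript is not unique to the gene. Of its 957 different 31-base words in the GENCODE M21 transcripts, 33.1% occur in 5 other genes, led by Gm6166, which holds 27.2% of them. None of these 5 is named in the deposited annotation. Crabp1, Crabp2 and Fabp7 share no such word with another gene. How reads that match several places were counted is not given in the sources used here, so the absolute FPKM of Fabp5 is less certain than that of the others.

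Fabp7, the other fatty acid carrier, was high in a few scattered cells. Its FPKM was 0 at the lowest, 13.2 at the median and 5793 at the highest in Progenitor cells, and 0, 0.369 and 324 in Precursor cells. In Early Immature Neuron cells the values were 0, 0 and 13.8, in Late Immature Neuron cells 0, 0 and 33.6, and in Mature Neuron cells 0, 0 and 138. Only 4 of the 85 cells reached 100: the Progenitor cells D189 at 5793 and D175 at 281, the Precursor cell D374 at 324 and the Mature Neuron cell D253 at 138. D189 and D175 held Sox2, a transcription factor of basal progenitors, at 254.7 and 83.2. They held Neurod1, a proneural factor, at 1.06 and 0.898, and their Crabp2, at 0.940 and 1.79, was the lowest of the stage. High Sox2 and low Neurod1 were not particular to them. Sox2 was 200.5 in D169 and 144.9 in D393, with Fabp7 at 9.96 and 0. Neurod1 was 0.492 in D184 and 0.959 in D174, with Fabp7 at 10.9 and 13.2. D374 held Sox2 at 0 and Neurod1 at 244.9, and D253 held both at 0. The glial markers Sox10, Gfap and S100b were listed at 0 in all 4 cells that reached a Fabp7 of 100. Mean log2(FPKM + 1) was 4.13 ± 3.73, 1.64 ± 2.86, 0.77 ± 1.42, 1.204 ± 1.93 and 0.41 ± 1.54 along the stages (SD, n = 11, 9, 27, 13 and 25), and no gap between neighbours in their order exceeded the SD.

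The stage difference of Fabp7 did not hold across cell numbers. The difference of Precursor from Progenitor cells was -2.49, with -3.32 without D374 and -1.65 without D189. That of Mature Neuron from Progenitor cells was -3.72, and -2.88 without D189. Among cells D316 to D434 both differences had the opposite sign, 2.08 and 0.80, since all 3 Progenitor cells there were listed at 0. Among D168 to D205, all 8 Progenitor cells held Fabp7, at 9.96 to 5793, against 1 of 11 cells of the other stages. The same 8 Progenitor cells, and the Precursor cell D179, with Fabp7 at 19.6, were also the 9 cells of the study with S100a9, a neutrophil gene, at 174.1 to 352. S100a9 was listed at 0 in the other cells. Over the 7 blood and immune markers the summed FPKM was 0 to 638 in Progenitor cells, 0 to 336.6 in Precursor cells and 0 to 78.9 in Mature Neuron cells, and 4 of the 7 were below 1 in all Progenitor cells. The part of blood cell RNA in the Fabp7 values was not tested.

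Low Fabp7 values also went with the number of the cell and not with its stage. All 10 cells numbered D406 to D434, which the labels spread over Early Immature, Late Immature and Mature Neuron, held 6.24 to 33.6 (median 9.33). Of the 27 cells numbered D316 to D401, 1 reached an FPKM of 1. The detection of Fabp7 in neurons rested on those numbers: of 12 cells past the Precursor stage with Fabp7 detected, all but D250 and D253 lay between D406 and D434.

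**Figure D4:**
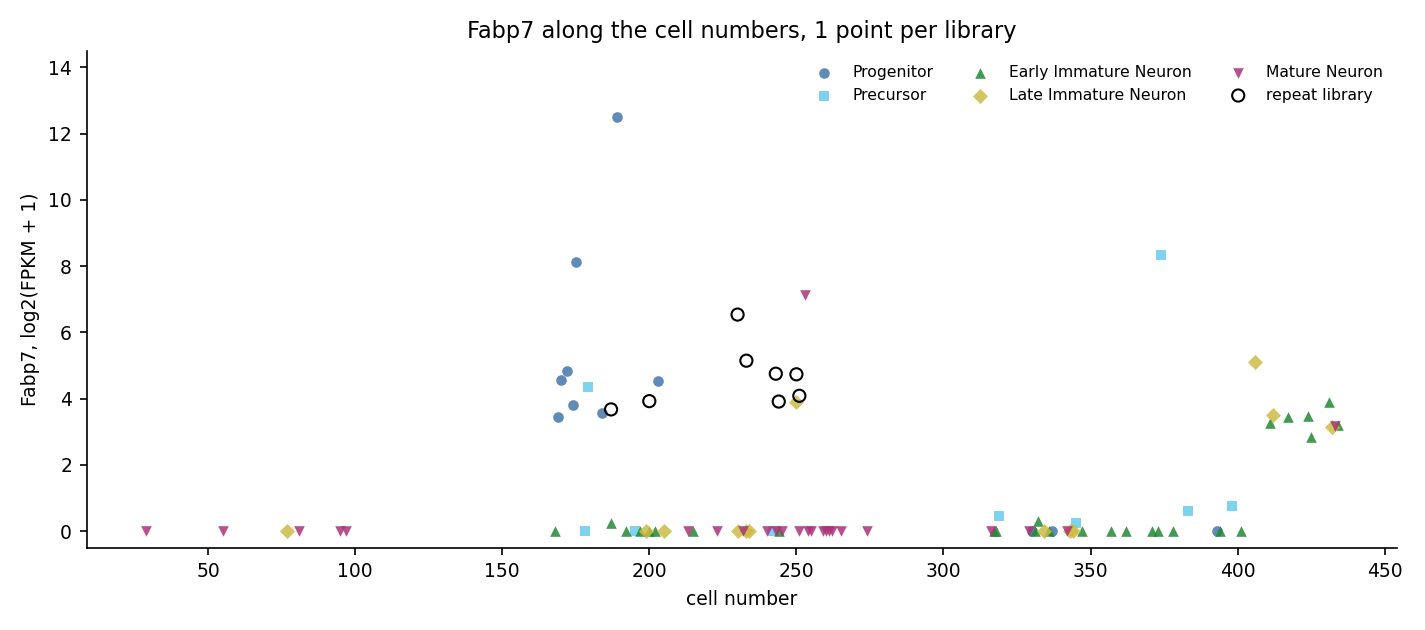
Fabp7 as log2(FPKM + 1) against cell number, with 1 point per library, colour and shape for the stage, and open circles for the 8 repeat libraries. The 10 cells D406 to D434 form a band at 6.24 to 33.6 FPKM whatever their stage, and the repeat libraries sit at 11.8 to 92.0 while 6 of the first libraries of the same cells are at 0.

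The 8 repeat libraries show how far a single value can be trusted. In the Early Immature Neuron cells D187, D200 and D244, Crabp1 read 3691, 1962 and 1098 in the repeat, against 3569, 942 and 1345 in the first library. Fabp5 read 227, 198 and 79.1 in the repeats of these cells, against 299, 165 and 84.0. These high values of both genes differed by at most 1.06 log2 units. The Late Immature Neuron cell D230 went the other way, with Crabp1 at 1003 in the repeat against 4.63 in the first library and Crabp2 at 0 in the repeat against 97.5. Its Fabp5 read 10.5 in the repeat against 0.877, at 2.62 log2 units the largest Fabp5 gap of the 8 cells. In the Mature Neuron cell D243, Fabp5 read 2.13 in the repeat against 0.473. The Crabp2 value of 97.5 was the highest past the Precursor stage. Fabp7 read 11.8 to 92.0 in all 8 repeats, against 0 in 6 first libraries, 0.194 in D187 and 13.8 in D250. Over the 8 cells the median size of the difference between repeat and first library was 2.26 log2 units for Crabp1, 0.58 for Crabp2, 0.69 for Fabp5 and 4.01 for Fabp7. A Crabp1 value of the size seen in the few Mature Neuron cells that detected it, 6.23 to 29.3, is therefore not a firm reading. D250 and D251, at 0 in the first library, read 21.2 and 15.6 in the repeat. The gaps were not evenly spread in direction. No Crabp1 repeat read under 15.6, and every Fabp7 repeat was above its first library, while Crabp2 was higher only in the repeat of D244. Whether the repeat libraries are shifted as a set was not tested.

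**Figure D5:**
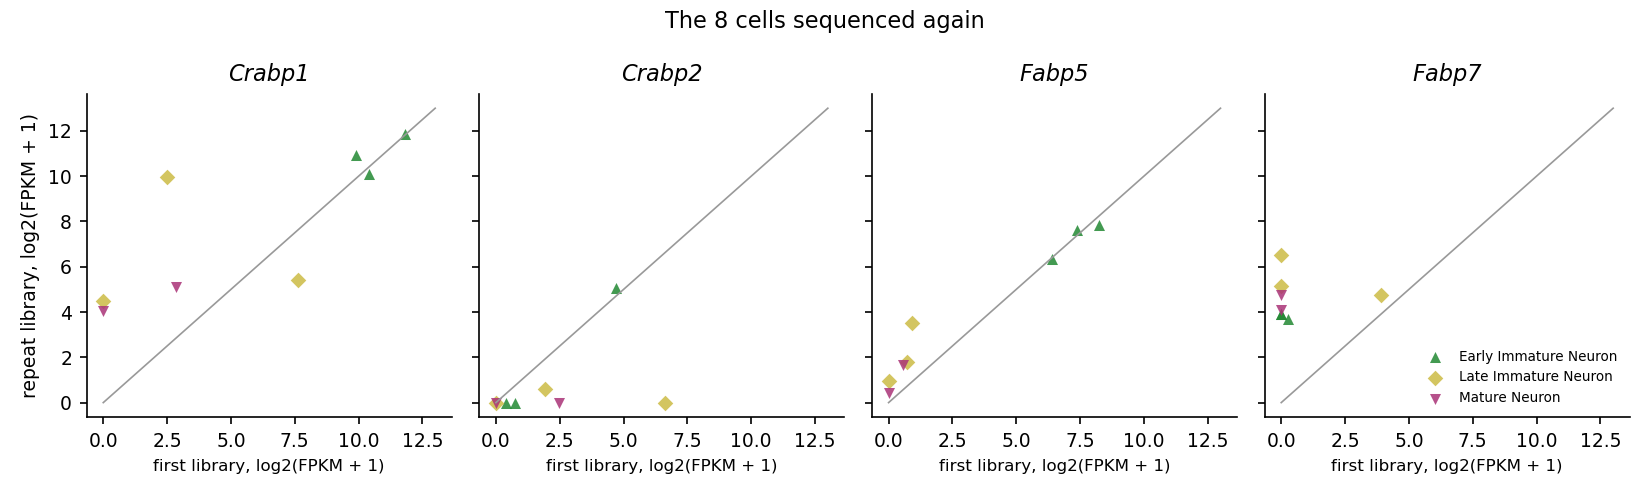
Each gene in the repeat library against the first library of the same cell, as log2(FPKM + 1), for the 8 cells sequenced again, with the line of equality. Crabp1 and Fabp5 lie near the line in the 3 Early Immature Neuron cells, D230 lies far from it for Crabp1, Crabp2 and Fabp5, and every Fabp7 point lies above it.

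The 4 genes were found in overlapping but unlike sets of cells. At an FPKM of at least 10, Crabp1, Crabp2 and Fabp5 occurred together, with or without Fabp7, in 4 of 11 Progenitor cells, 5 of 9 Precursor cells and 1 of 27 Early Immature Neuron cells. In Early Immature Neuron cells Crabp1 with Fabp5 alone was the commonest set, in 11 of 27 cells, and 4 cells held Crabp1 alone and 5 Fabp5 alone. In Mature Neuron cells 22 of 25 held none of the 4. Across all 85 cells Crabp1 and Fabp5 had r = 0.54, Crabp2 and Fabp5 r = 0.48, and Crabp1 and Crabp2 r = 0.29. These values carry the stage with them. Within the 20 Progenitor and Precursor cells they were 0.31, -0.12 and -0.04, and within the 27 Early Immature Neuron cells Crabp1 and Fabp5 had r = 0.14, so a cell high in one was not regularly high in the other.

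By correlation of log2(FPKM + 1) over the 85 cells, the genes most like each carrier among 8440 annotated genes detected in at least 10 cells were these. Crabp1 was followed by Cdyl2 (r = 0.78), Tex15, Mex3a, Col9a2, Gdf11 and Qdpr (0.71), and 4 of these 6 were also among the 6 highest by Spearman's rho. Crabp2 was followed by Rbm24 (0.84), Impdh2, Mfng, Tmem98 and Mdk (0.76), and 1 of its 6 was among the 6 by rho. Fabp5 was followed by Pebp1 (0.77), Marcksl1, Stmn1, Ifitm2, Hn1 and Dpysl3 (0.70), of which 2 were. Fabp7 was followed by S100a8 (0.61), Fcer1g, Mki67, Ccdc25, Hmmr and Lcn2 (0.51), of which 1 was. S100a8, Fcer1g and Lcn2 are genes of neutrophils or other white blood cells, and Mki67 and Hmmr are genes of dividing cells. Impdh2, which makes guanine nucleotides, had mean log2(FPKM + 1) of 7.13, 7.66, 1.54, 0.91 and 0.44 along the stages, close to the course of Crabp2. Stmn1, a microtubule regulator, stayed at 10.32, 10.81 and 10.30 through Early Immature Neuron cells, where Fabp5 was already lower.

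The relatives of the carriers were all but absent. Of 11 other genes of the cellular retinol and fatty acid binding protein family in the table, none was measured in any comparison. Fabp3, the heart form, reached 162 in 1 Precursor cell and Rbp7, a retinol carrier, 257 in 1 Mature Neuron cell. Fabp1, Fabp2, Fabp4, Fabp6, Fabp9, Fabp12, Pmp2 and Rbp2 were listed at 0 in all 85 cells. The 3 hydroxylases that degrade retinoic acid were not measured either, although Cyp26b1 was detected in 1 of 11 Progenitor cells, at 12.4, in 6 of 13 Late Immature Neuron cells, at up to 95.9, and in 3 of 25 Mature Neuron cells, at up to 277. Of 19 genes for retinol delivery and oxidation, 2 were measured between Mature Neuron and Progenitor cells. Rdh14, a retinol dehydrogenase, was 2.87 higher in Mature Neuron cells and Dhrs4, a related dehydrogenase, 2.39 lower.

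Among 12 retinoic acid receptors and their cofactors, 5 were measured between Mature Neuron and Progenitor cells, with 2 higher, 3 lower and a median difference of -1.21, beside -0.81 over all measured genes. The share of lower genes was near that over all measured genes, of which 46.3% were lower and 25.2% higher. With non-mitochondrial FPKM scaled to a common sum, 1 gene of the list was higher and the median was -1.90. Rarg, the gamma receptor, was 2.23 higher in Mature Neuron cells, with mean log2(FPKM + 1) of 0.29, 0.59, 1.63, 3.60 and 2.52 along the stages. It was 1.97 higher in Late than in Early Immature Neuron cells, the step in which Crabp1 and Fabp5 were lower. Ncoa1, a coactivator, was 1.60 higher, and Ncor1, a corepressor, 1.45 lower in Mature Neuron cells. Between Mature and Late Immature Neuron cells, 3 of 4 measured genes of this list were lower, Ncoa2 by the most at -2.40, in a comparison where 32.7% of measured genes were lower and 4.57% higher by at least 1 log2 unit. None of the carriers was measured in that last step. Rara was detected in 4 of 11 Progenitor cells, 1 Precursor cell, 2 Early Immature Neuron cells and no later cell. Of the fatty acid receptors, Pparg was listed at 0 in all cells, and Ppard, the receptor served by FABP5, was detected in 6 of the 85 cells, none of them a Mature Neuron.

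The genes of fatty acid metabolism differed in both directions. All 5 measured genes of fatty acid synthesis were lower in Mature Neuron than in Progenitor cells, with a median of -2.42. Over all measured genes of that comparison 46.3% were lower and 25.2% higher by at least 1 log2 unit, with a median of -0.81. Among them were Scd2, a desaturase, at -3.73, the regulator Srebf2 at -2.55, the citrate cleaving enzyme Acly at -2.42 and the elongase Elovl5 at -2.15. Of 5 measured genes of uptake and activation, 2 were higher and 2 lower. Acsl6, an acyl-CoA synthetase, was 6.53 higher in Mature Neuron cells, with mean log2(FPKM + 1) of 0.78, 1.10, 3.93, 7.73 and 7.31 along the stages. Acsl3, another synthetase, was 3.77 lower, and the acyl-CoA binding protein gene Dbi 3.28 lower. Acsl4, the other higher gene, was at 1.05. Under either other scaling 1 gene of this list was higher. With non-mitochondrial FPKM scaled to a common sum 3 were lower, and the median was -1.21 instead of -0.49. Of 4 measured genes of oxidation, Hadhb and Acadvl were higher, at 2.50 and 1.27, and Hadha and Acadl lower, at -2.32 and -1.81. Hadha and Hadhb encode the subunits of one enzyme complex, and their transcripts differed in opposite directions. These lists were chosen with earlier results of these data known.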

How the data were processed

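The authors deposited 1 table of FPKM for 93 single-cell libraries, 85 first and 8 repeat libraries. Per the submitters' processing notes, CASAVA 1.8.2, Trim Galore with cutadapt 1.2.1, TopHat2 2.0.14 and Cufflinks 2.2.1 were used with the mm10 genome. FPKM carries no counts, and amplification of cDNA from 1 cell adds error that FPKM does not show. The authors also deposited the annotation, whose genome positions gave symbols, gene positions and lengths. All 93 columns were matched to labels by title. Levels were averaged as log2(FPKM + 1) over first libraries, with Python 3.11.15, numpy, pandas and scipy. A gene entered a comparison if 50% or more of the cells of at least 1 of its stages detected it, and a difference of at least 1 was counted. No test between stages was possible, since each stage is 1 sample. The differences and the ranking by correlation were checked on simulated data. The members, the markers and the lists of pathway genes were chosen with earlier results of these data known. Named genes were the members, at most 4 genes of a list per comparison, the 6 genes most like each member and the markers. Genes outside this rule, named as undetected or from the same list, were chosen after their values were seen. The planned comparison of protein sequences was not made. Some genes that the rule would name are not reported here.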

Additional observations from a re-analysis of the deposited data

Results flagged for a closer look

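Fabp5 in the Precursor cell D242 stood at an FPKM of 4.48, far under the other 8 Precursor cells, whose lowest value was 154. In log2(FPKM + 1), the gap to the nearest cell, relative to the range of the stage, passed Dixon's 95% limit for 9 values. In FPKM itself the gap was not that large. The limit is one that chance passes in about 1 in 20 groups. The Precursor stage was the sole one with few enough cells for that rule. In the same cell Crabp2 was 473, Crabp1 2.17, Hes6 183, Neurod1 174.2, Omp 378.5 and Cbr2 1071.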

How the results depend on the processing

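The 13 differences of the 4 genes between stages were recomputed under 9 alternatives, of which 1, setting values under 1% of the highest of the gene in its range of cell numbers to 0, was chosen after seeing the data. Of the 117 values, 111 kept their direction. For Fabp7, Precursor minus Progenitor was 2.08 among cells D316 to D434 and 0.35 without cells holding a marker of other cell types at an FPKM of at least 100, and Mature Neuron minus Progenitor was 0.80 and 0.35 under the same settings. These settings leave 3 Progenitor cells, all at 0. The other changes of sign were of values under 1. For Fabp5, Mature Neuron minus Progenitor was -10.11 with a pseudocount of 0.1 and -4.03 with 10, as a gene at 0 must move. Leaving out each cell in turn gave values within 1 SD of the one reported in every case. Scaling to the non-mitochondrial sum shifted the median of all measured genes by -0.63 in Mature Neuron minus Progenitor and by -0.59 in Mature minus Late Immature Neuron, and no difference of the 4 genes changed sign. With no filter on low values, 2.55% to 22.2% of genes were past 1 log2 unit in a direction, instead of 4.57% to 46.3%. No paired analysis was possible because the stages share no replicate numbers and no test was made.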
